A study of Fukomys damarensis with 16 samples.

Results

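The data set holds 150 genes of the Damaraland mole-rat, Fukomys damarensis, that were abundant in both kidney and liver and scarce in brain, ovary and testis. They were chosen by their measured levels from a table of 21082 genes. For each gene the lowest log2(RPKM + 1) of the 8 kidney and liver libraries was compared with the highest of the 8 brain, ovary and testis libraries, and the 150 genes with the largest gap were kept. RPKM is the number of reads per kilobase of gene model, divided by a library-wide total (the divisor). Genes whose mean in kidney alone or liver alone was at least 8 times the mean of each of the other 4 tissues had been left out (876 genes), so tissue-specific genes of either organ are not members. Because the levels chose the genes, the difference between the kidney and liver pair and the other 3 tissues is a description and carries no test.

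The mole-rat lives underground in colonies of breeding animals and non-breeding helpers. Poly(A)-selected RNA was sequenced in 16 libraries. In kidney, liver and brain each sex of breeders and of non-breeders is represented by 1 library, and ovary and testis have 1 from a breeder and 1 from a non-breeder. The labels give 5 years for the non-breeding males, 3 years for the non-breeding females and no age for breeders, so age cannot be told apart from sex among the non-breeding libraries. Of the 4 brain libraries 3 are labelled frontal brain, and that of the non-breeding male is labelled brain. No treatment or genetic change is given for any group. Each combination of tissue, status and sex is 1 library, and nothing in the labels says which libraries share an animal. All p-values thus rest on the spread among single libraries, part of which may be technical. If a kidney and a liver library come from the same animal, fits and pair counts over both organs count that animal more than once.

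Kidney and liver are the organs that release newly made glucose into the blood. The epithelial cells of the proximal tubule and the hepatocytes also share amino acid breakdown, oxidation of fatty acids in peroxisomes, conjugation of foreign compounds and transport of organic anions, and the hepatocyte nuclear factors are transcription factors of both cell types. None of the 150 identifiers (0) was found among the 33132 RefSeq genes of assembly DMR_v1.0_HiC, so the files do not pair the members with gene names, the roles of single members are not given, no pathway list was counted and the tissue labels were not checked against marker genes. The members are described by identifier, coding length and level, with at most 2 identifiers for each direction of a comparison.

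The members were abundant genes in both organs. Their mean RPKM had a median of 128 in kidney (range 7.34 to 3116) and of 200.0 in liver (range 11.04 to 10941). The 11115 genes that reached 1 RPKM in all 8 kidney and liver libraries had medians of 19.2 and 19.4. In kidney 89 members averaged 100 RPKM or more, and in liver 106 did. Among the 500 most abundant genes of each tissue were 58 members in kidney and 65 in liver, and 0 in brain, ovary or testis. In brain, ovary and testis the medians of the member means were 0.957, 1.31 and 1.24 RPKM. The medians of the members and of the expressed genes show a set of genes with high levels in both organs, which the rule favours.

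**Figure D1:**
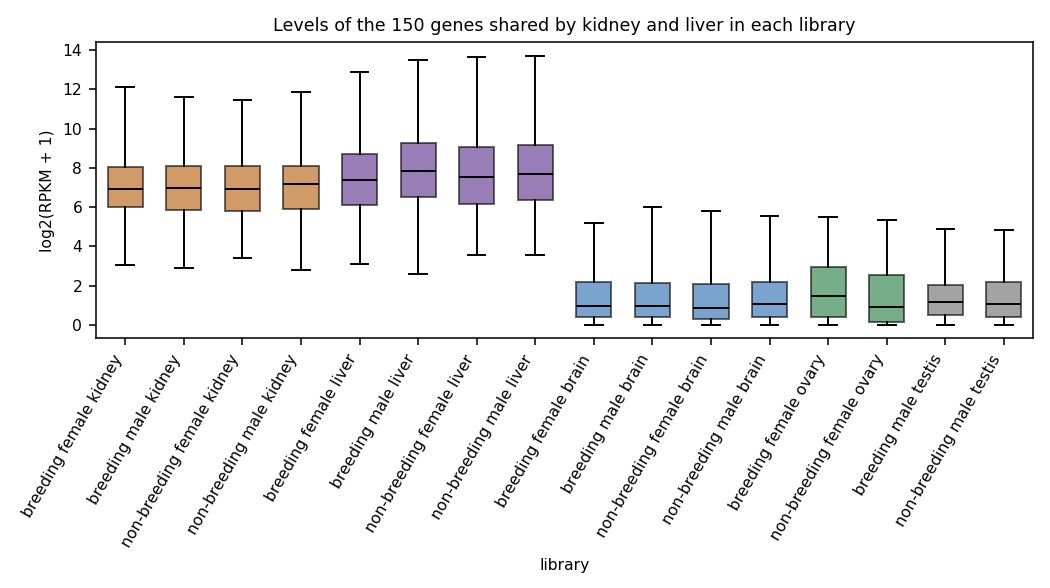
Levels of the 150 members in each of the 16 libraries, on the y axis as log2(RPKM + 1). Boxes span the quartiles, lines in the boxes are medians and whiskers reach the lowest and highest member. The 8 kidney and liver libraries stand above the other 8, as the rule required, and every library holds members over a wide range of levels.

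As a share of all reads on genes, the members took 6.03% to 6.86% in the 4 kidney libraries (6.31% ± 0.374, SD, n = 4) and 5.07% to 6.05% in the 4 liver libraries (5.69% ± 0.44, SD, n = 4). In brain the share was 0.0735% to 0.0941%. It was 0.138% in the breeding ovary, 0.128% in the non-breeding ovary, 0.0882% in breeding testis and 0.0878% in non-breeding testis. Libraries held 15393003 to 27593857 reads on genes, and a member had at least 32 reads in every kidney and liver library (median of the lowest value, 1718 reads). In bulk tissue, fewer cells of a type and less RNA per cell cannot be told apart.

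The largest gaps belonged to DMR_21794 (1095 bases) and DMR_07419 (435 bases). Values of kidney and liver are given here and below in a fixed order, the breeding male and breeding female first, then the male and the female of the non-breeders. DMR_21794 had 2042, 1955, 1717 and 2147 RPKM in kidney and 5118, 2816, 3088 and 3297 RPKM in liver. In brain, in the same order, it had 3.50, 3.24, 3.62 and 2.52 RPKM, in ovary 1.09 (breeding) and 0.436, and in testis 1.34 (breeding) and 1.27. Every kidney and liver value of this gene was thus far above every value outside the organs. DMR_07419 had 3132, 2901, 3744 and 2689 RPKM in kidney and 11670, 7493, 11055 and 10283 RPKM in liver, against 0.0997 to 7.13 RPKM in the other 8 libraries. On the deposited scale its values in kidney and liver did not overlap, all 4 liver values being higher, with a log2 difference, kidney minus liver, of -1.69 that turned to 0.27 after quantile normalization. That of DMR_21794 turned from -0.83 to 0.92.

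At the limit of the list the gap was far smaller. The last genes inside it were DMR_16515, with a gap of 2.43 on the log2 scale between 28.0 RPKM (lowest in kidney and liver) and 4.37 RPKM (highest elsewhere), and DMR_18502, with a gap of 2.42 between 5.99 and 0.304 RPKM. The first genes outside it were DMR_04477, with 2.42 between 4.96 and 0.113 RPKM, and DMR_20802, with 2.42 between 31.6 and 5.08 RPKM. Over all members the gap ran from 2.42 to 8.54 with a median of 3.70, and 944 genes in all had every kidney and liver value above every other value after the exclusion. The list is therefore a limit drawn through a continuous range.

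Scarcity outside the 2 organs varied among the members. Of the 150 members 34 stayed under 1 RPKM in all 8 brain, ovary and testis libraries, 43 reached 1 RPKM in all 8, and 34 reached 10 RPKM in at least 1. A read was present in all 8 for 118 members, and 0 members lacked reads in all 8. The highest of the 3 tissue means was in ovary for 58 members, in brain for 49 and in testis for 43. Among the expressed genes the shares were 38.9%, 30.8% and 30.3%, which is nearly the same split.

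The first comparison asked how the shared genes divide between the 2 organs. The rule bounds this difference at about 8-fold, since genes further apart had been left out. It also used the lowest of the same 8 values, which lay in a kidney library for 104 members and in a liver library for 46. The calls that follow thus rest on values that chose the members, and how far the rule shaped the split was not tested. On the deposited scale 41 members had the higher mean in kidney and 109 in liver, and 73 lay within 2-fold. Higher means by 4-fold or more were found in liver for 18 members and in kidney for 3. Tissue means were tested with limma on log2(RPKM + 1) in the 8 kidney and liver libraries, with status and sex as covariates and Benjamini-Hochberg adjustment over 14453 genes. The test called 53% of all genes, 28.6% higher in kidney and 24.4% higher in liver, and 104 of the 150 members, 23 higher in kidney and 81 higher in liver. The median difference, kidney minus liver, was -0.71 on the log2 scale over the members and 0.02 over all genes tested.

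This split depends on the scale of the liver libraries. Their reads on genes came to 1.55 to 1.97 times the divisor of the deposited values, against 0.665 to 0.945 times in the other tissues, and the sum of their RPKM was 1172846 to 1536307 against 430941 to 681080. Scaled to reads on genes, 62 members were called higher in kidney and 36 higher in liver, beside 68.4% and 9.86% of all genes, and the median was 0.24 for members and 0.87 for all genes. With quantile normalization the calls were 46 and 59, beside 28.7% and 26.1% of all genes, and with limma's voom on the whole reads they were 66 and 38, beside 68.5% and 9.93%. The voom fit took the reads on genes as library size. It thus shares its scale with the fit scaled to reads on genes, and the 4 scalings are not independent. Relative to the median gene of each fit, fewer than 50% of the members were shifted to kidney under every one of the 4 scalings (41, 45, 69 and 41 members in the order deposited, reads on genes, quantile and voom). Called higher in kidney under all 4 scalings were 23 members (15.3%, beside 25.2% of all genes tested), and higher in liver 35 (beside 9.58%). Another 7 turned direction between scalings (4.04% of all genes), 9 were called by none (6.1%), and 76 were called by some scalings in 1 direction (55.1%).

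The 23 members of the kidney side had kidney means 1.41 to 7.97 times the liver means on the deposited scale. Their log2 differences of 0.52 to 2.92 became 1.49 to 3.84 when scaled to reads on genes. Their median level was 181 RPKM in kidney and 75.05 in liver. The largest differences among them were those of DMR_04729 and DMR_19429. DMR_04729 (1428 bases) had 106, 109.8, 113 and 141 RPKM in kidney and 11.7, 18.1, 16.04 and 13.04 in liver. Its groups did not overlap, and the log2 difference, kidney minus liver, was 2.92 (SE 0.164, limma adjusted p = 2.76e-06). DMR_19429 (1593 bases) had 87.5, 138, 133 and 85.8 RPKM in kidney and 22.5, 19.4, 11.9 and 17.7 in liver. Here too every kidney value was above every liver value, with a difference of 2.57 (SE 0.233, limma adjusted p = 4.35e-05).

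The 35 members of the liver side had liver means 2.69 to 7.92 times the kidney means on the deposited scale. Scaled to reads on genes they differed less, their log2 differences, kidney minus liver, running from -1.99 to -0.43 in place of -2.97 to -1.41. Their median level was 91.6 RPKM in kidney and 393 in liver. DMR_04833 (7488 bases), the longest member, had 78.3, 73.5, 106 and 83.2 RPKM in kidney and 612, 705, 574 and 812 in liver. All liver values lay well above all kidney values, and the difference, kidney minus liver, was -2.97 (SE 0.176, limma adjusted p = 3.68e-06), or -1.99 when scaled to reads on genes. DMR_06003 (1503 bases) had 35.2, 123, 111 and 96.9 RPKM in kidney and 647, 553, 777 and 669 in liver. The breeding male kidney stood low, and the difference was -2.97 (SE 0.338, limma adjusted p = 0.000161). These 4 genes were called in each of the 17 other settings tried for the comparison.

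**Figure D2:**
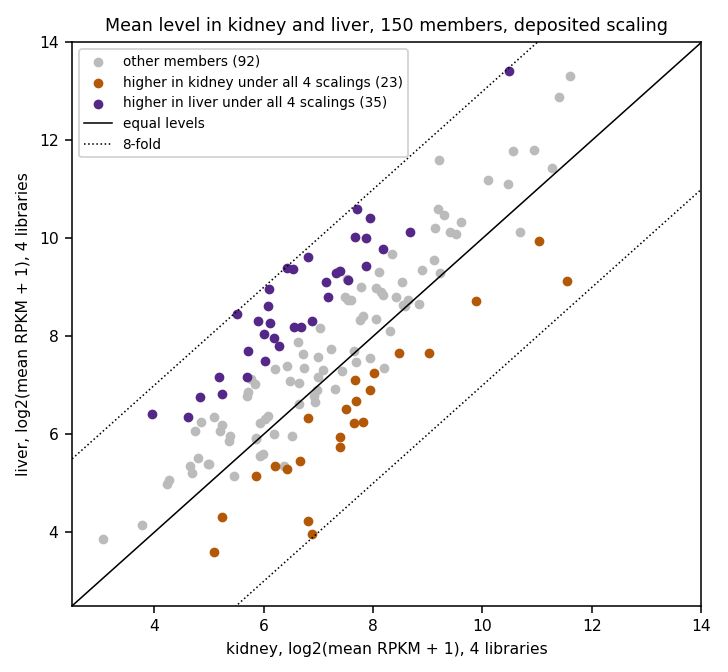
Mean level of each member in liver (y axis) against kidney (x axis), both as log2(mean RPKM + 1) of 4 libraries on the deposited scale. The solid line marks equal levels and the dotted lines an 8-fold difference. The 23 members higher in kidney under all 4 scalings lie below the line, the 35 higher in liver above it, and the other 92 on both sides of it.

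The most abundant member in liver, DMR_19350 (357 bases), chosen after its values were seen, had 10134, 7461, 13359 and 12810 RPKM there. In kidney it had 1362, 1506, 1417 and 1469 RPKM, a narrow range well below all liver values. The members were 240 to 7488 bases long with a median of 1369.5, close to the 1359 of the expressed genes and above the 1056 of all genes.

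Breeding status was compared next, with kidney and liver fitted together. The rule had used the lowest of these 8 values. In the order given above, it lay in the 4 kidney libraries for 32, 29, 19 and 24 members. For the 4 liver libraries the numbers were 4, 25, 8 and 9. The status and sex counts below thus rest in part on values that chose the members. How far the rule shaped them was not tested. The limma test called 2 of 14453 genes (0.0138%) and 0 members at adjusted p 0.05, and voom likewise called 0 members. At an unadjusted p of 0.05, 15 members differed (5 higher and 10 lower in breeders), or 10% beside 12.8% of all genes. The median difference, breeding minus non-breeding, was -0.05 over the members and 0.03 over all genes. In all 4 pairs matched for tissue and sex the breeder was higher for 10 members (6.67%, beside 12.7% of all genes) and lower for 19 (12.7%, beside 10.4%). Other scalings gave more members at that p, 25 or 16.7% when scaled to reads on genes (11.9% of all genes) and 27 or 18.0% by voom (13.1%). Scaled to reads on genes, 16 members were higher and 24 lower in all 4 pairs, beside 14.1% and 8.97% of all genes. The median also turned with single libraries, to 0.06 (82 members higher, 68 lower) without the breeding female liver and to -0.14 (51 higher, 99 lower) without the breeding male liver.

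The members with the smallest unadjusted p were DMR_10009 and DMR_07650. DMR_10009 (594 bases) had 265, 174, 158 and 143 RPKM in kidney and 719, 426, 336 and 230.0 in liver. In both organs both breeders were above both non-breeders, and the difference was 0.75 (SE 0.175, limma adjusted p = 0.278). DMR_07650 (444 bases) had 18.9, 32.8, 30.6 and 49.9 RPKM in kidney and 5.15, 7.63, 11.03 and 20.4 in liver. Its lowest value in each organ was that of the breeding male and its highest that of the non-breeding female. The difference between breeders and non-breeders was -0.88 (SE 0.155, limma adjusted p = 0.255) and that between males and females -0.69 (limma adjusted p = 0.192).

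Within kidney the test of status called 0 of all genes and within liver 2 genes (0.0138%, of which 0.00692% higher and 0.00692% lower in breeders), with 0 members in either, also by voom. At an unadjusted p of 0.05, 14 members differed in kidney and 12 in liver, where 7.58% and 10% of all genes did. Both breeding kidneys lay above both non-breeding kidneys for 17 members and below them for 23, beside 20.8% and 13.6% of all genes. In liver the numbers were 20 and 24, beside 19.3% and 18.9%. Differences of the members spanned -1.93 to 1.12 in kidney and -3.21 to 1.24 in liver, and few members differed by 1 or more. In kidney 2 were higher and 6 lower in breeders by that much, beside 1.43% and 0.962% of all genes, and in liver 2 were higher and 2 lower, beside 3% and 0.969%. DMR_17993 (2208 bases) had 334, 731, 186 and 275 RPKM in kidney, both breeders being higher, with a difference of 1.12 (SE 0.286, limma adjusted p = 0.617). For a status difference that itself differed between the organs, the smallest unadjusted p was that of DMR_14477 (1599 bases), which had 30.4, 21.5, 79.6 and 48.0 RPKM in kidney and 448, 362, 474 and 125 in liver. Its status difference was 1.96 more positive in liver than in kidney (SE 0.546, limma adjusted p = 0.893). No gene (0) was called for such a difference between the organs, and 8 members passed an unadjusted p of 0.05, beside 4.86% of all genes.

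Sex was compared in the same way. With both organs together limma called 8 genes (0.0554%) and 0 members, and voom called 1 member. At an unadjusted p of 0.05, 32 members differed, 30 of them higher in males, which is 21.3% of the members beside 14.7% of all genes. This count moved with single libraries. It was 16 (10.7%, beside 10.1% of all genes) without the non-breeding female liver and 17 (11.3%, beside 9.33%) without the breeding male liver. The count also fell without the non-breeding male kidney. Without the breeding female liver it rose, and the split between higher and lower in males was more even. The median difference, male minus female, was 0.14 over members and 0.00 over all genes, with 96 members higher and 54 lower in males. In all 4 pairs matched for tissue and status the male was higher for 32 members (21.3%, beside 13.4% of all genes) and lower for 5 (3.33%, beside 10.6%). On the scale of reads on genes, the counts were 30 and 8, beside 8.30% and 13.3%. The leading member, DMR_05910 (504 bases), had 65.3, 31.0, 48.5 and 27.9 RPKM in kidney and 55.6, 27.8, 42.3 and 12.9 in liver. Both males were above both females in each organ, and the difference was 1.11 (SE 0.176, limma adjusted p = 0.173, with a range of 0.0414 to 0.506 over the other settings).

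In liver 123 members were higher and 27 lower in males, and the median difference was 0.29 over members and 0.01 over all genes. Both male livers lay above both female livers for 62 members (41.3%, beside 19.1% of all genes) and below them for 6 (4.0%, beside 14.7%). The limma test called 20 genes (0.138%, of which 0.0969% higher and 0.0415% lower in males) and 0 members, with 21 members at an unadjusted p of 0.05 (20 of them higher in males, 8.37% of all genes passing), and voom called 0 members. The breeding male liver held the highest of the 4 liver values for 75 members and the breeding female liver the lowest for 85, where 30.2% and 32.2% of expressed genes had theirs. The rule's lowest value lay in the breeding female liver for 25 members and in the breeding male liver for 4. It lay in the non-breeding female liver for 9, in the non-breeding male liver for 8 and in a kidney library for 104. These liver counts thus rest in part on values that chose the members.

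The sums of RPKM in liver moved with these counts. They were 1536307 in the breeding male, 1172846 in the breeding female, 1387061 in the non-breeding male and 1303625 in the non-breeding female. Scaled to reads on genes, 98 members were higher and 52 lower in male liver, and the median was 0.11 for members and -0.12 for all genes. On that scale 45 members had both males above both females, beside 9.28% of all genes, and 14 had both below, beside 26.6%. With quantile normalization 101 were higher and 49 lower, with medians of 0.15 and 0.02. Without the breeding female liver or the breeding male liver the direction was that of the non-breeding pair, 84 higher and 66 lower with a median of 0.09. Without a non-breeding liver it was that of the breeding pair, 129 higher and 21 lower with a median of 0.52.

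The liver member with the smallest unadjusted p was DMR_20563 (1632 bases). It had 220, 51.0, 213 and 90.9 RPKM in liver, both males being more than 2 times the higher female. In kidney it had 42.8, 24.8, 39.9 and 33.3 RPKM, where the males were higher too. The liver difference was 1.65 (SE 0.277, limma adjusted p = 0.234). In liver 10 members were higher and 0 lower in males by 1 or more, beside 1.57% and 2.34% of all genes, and the members spanned -0.85 to 4.33. By reads on genes, 7 were higher and 1 lower by that much, beside 0.83% and 2.51%.

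In kidney 76 members were higher and 74 lower in males, an average of pairs that went opposite ways. Without a breeding kidney 92 were higher and 58 lower (median 0.17), and without a non-breeding kidney 58 were higher and 92 lower (median -0.13). By reads on genes the split was 84 and 66. Both males were above both females for 34 members and below them for 36, beside 21.6% and 22.2% of all genes. The limma test called 7 genes (0.0484%) and 0 members, with 25 members at an unadjusted p of 0.05 beside 11.9% of all genes, and voom called 1 member. DMR_18412 (1782 bases) had 57.0, 15.99, 161 and 39.6 RPKM in kidney and 259.9, 222, 428 and 317 in liver. In each status the male kidney exceeded the female, the log2 difference being 1.89 (SE 0.208, limma adjusted p = 0.123, range 0.0313 to 0.811 over the other settings). Kidneys of breeders were lower than those of the same sex without breeding, by -1.37 (SE 0.208, limma adjusted p = 0.617). DMR_02941 (1758 bases) went the other way in kidney, with 135, 298, 84.8 and 212 RPKM, and had 665, 329, 689 and 618 in liver. Its males were lower in kidney, by -1.22 (SE 0.294, limma adjusted p = 0.307), and higher in liver.

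Whether the sex difference itself differed between organs was tested in 1 model. No gene (0) was called by limma, also 0 members by voom, and 14 members passed an unadjusted p of 0.05 beside 5.55% of all genes. The difference was more positive in liver for 114 of the 150 members, with a median of 0.36 beside 0.00 for all genes. Scaled to reads on genes the medians were 0.09 and -0.21. DMR_02941 had the smallest unadjusted p of those more positive in liver (1.81, SE 0.415, limma adjusted p = 0.774), and DMR_18412 of those less positive (-1.56, SE 0.294, limma adjusted p = 0.696).

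**Figure D3:**
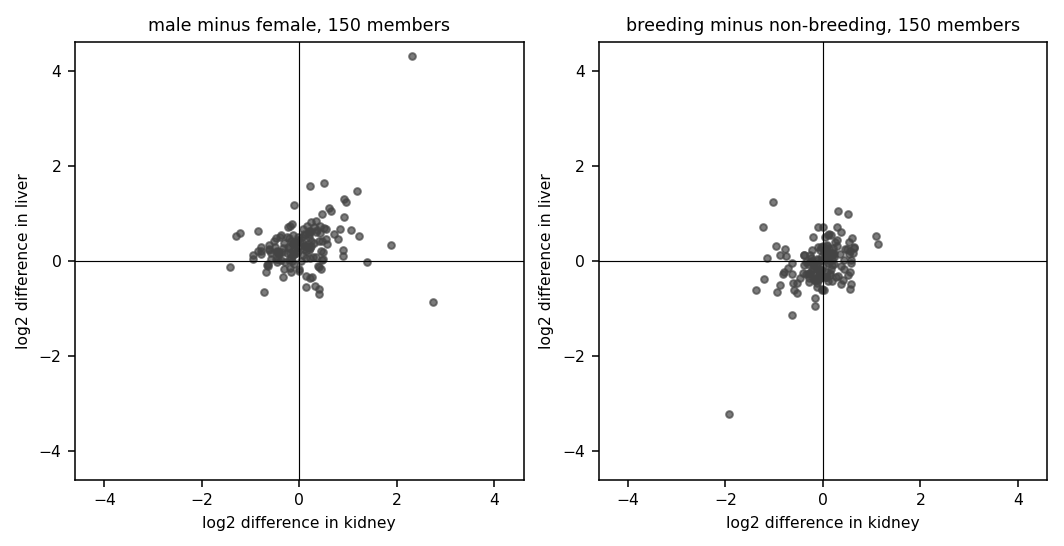
Log2 difference of each member in liver (y axis) against kidney (x axis), for males minus females on the left and breeders minus non-breeders on the right, 150 members each. On the left 123 members lie above 0 in liver and 76 above 0 in kidney. On the right the points centre on 0, and DMR_19766 is the uppermost point on the left and the lowest on the right.

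Chosen after its values were seen, DMR_19766 (1533 bases) had the largest ratio between its highest and lowest liver value of the 150 members. It had 701, 55.3, 1062 and 542 RPKM in kidney and 4960, 26.7, 5143 and 2290 in liver. The breeding female was lowest in each organ, and the highest value was 192.5 times the lowest in liver and 19.2 times in kidney. Its sex difference in liver was 4.33 (SE 1.43, limma adjusted p = 0.519) and its status difference in liver was -3.21 (limma adjusted p = 0.518). The member with the preceding identifier number, DMR_19765 (1527 bases), had 1435, 4537, 1199 and 2737 RPKM in kidney and 2951, 3054, 2379 and 2696 in liver. Here the breeding female was highest in each organ, narrowly in liver. Whether the 2 gene models share reads was not tested.

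**Figure D4:**
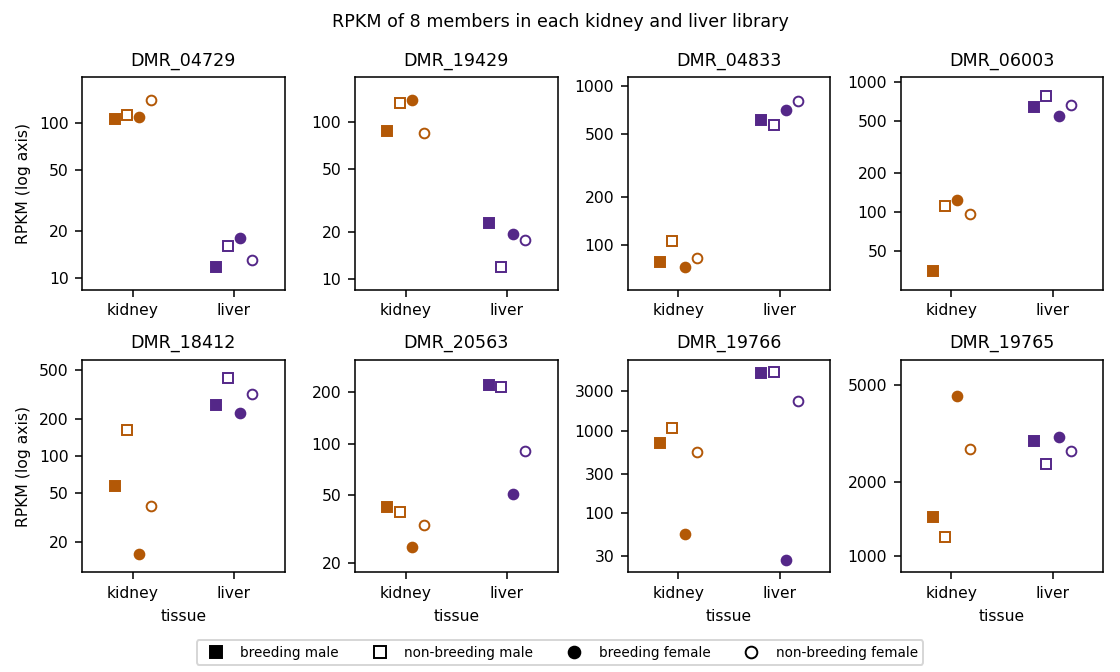
RPKM (log y axis, its range differing between panels) of 8 members in each kidney and liver library, squares for males, circles for females, filled for breeders and open for non-breeders. The top row shows the members with the largest differences between kidney and liver, whose groups do not overlap. In the bottom row the breeding female is lowest in both organs for DMR_18412, DMR_20563 and DMR_19766 and highest in both for DMR_19765.

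Outside kidney and liver, ovary was compared with brain and testis. The rule used the highest of these 8 values, which lay in an ovary library for 59 members, a brain library for 54 and a testis library for 37. The calls below thus rest in part on values that chose the members, and how far the rule shaped them was not tested. With limma on the 8 brain, ovary and testis libraries, 104 of the 150 members passed the filter of 1 RPKM in 2 libraries. The ovary libraries alone, or the testis libraries alone, can meet that filter. Between ovary and the mean of brain and testis 63.1% of all genes were called, 26.8% higher and 36.2% lower in ovary. Of the members 54 were called, 36 higher and 18 lower in ovary. This split moved when a single ovary or testis library was left out. More members were called higher than lower in each of these refits, and the split was closest to even without the breeding ovary. Such refits leave 1 library in a tissue, so their counts are not given. With no filter 58 of 150 were called, 38 higher and 20 lower, beside 21.5% and 30.7% of all genes. Quantile normalization moved the split to 50 higher and 9 lower, beside 31.7% and 31.2% of all genes. DMR_01205 (1017 bases) had 8.70 RPKM in the ovary of the breeder and 40.04 in that of the non-breeder, against 0.804 to 1.72 in brain and 0.353 and 0.126 in testis. Both ovaries were above all other libraries, and the difference was 3.62 (SE 0.446, limma adjusted p = 9.17e-05). DMR_03512 (1551 bases) had 14.9 and 31.8 RPKM in ovary, 1.45 to 1.71 in brain and 1.83 and 5.25 in testis, a difference of 2.80 (SE 0.338, limma adjusted p = 7.95e-05).

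Lower in ovary were DMR_17993 and DMR_07419. DMR_17993 had 0.912 and 1.75 RPKM in breeding and non-breeding ovary, 5.05 to 15.9 in brain and 7.88 and 5.21 in testis, with a difference of -2.01 (SE 0.370, limma adjusted p = 0.00112). DMR_07419 differed by -1.80 (SE 0.359, limma adjusted p = 0.00179), its ovary values of 0.228 and 0.0997 RPKM being below those of every brain and testis library. As the rule required, the higher ovary levels too stayed below the kidney and liver levels of the same gene. DMR_01205 had 497 to 917 RPKM in kidney and 799 to 1598 in liver, and DMR_03512 had 368 to 476 and 913 to 1299.

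Between the breeding and the non-breeding ovary, with 1 library each, no test was possible. The highest of the 8 brain, ovary and testis values, used by the rule, lay in the breeding ovary for 43 members. It lay in the non-breeding ovary for 16, in breeding testis for 15, in non-breeding testis for 22 and in a brain library for 54. The splits below thus rest in part on values that chose the members, and how far the rule shaped them was not tested. Of the 91 members with 1 RPKM in either library, 18 passed that level through the breeding ovary only and 3 through the non-breeding ovary only. Of the 91, 62 were higher in the breeding ovary (68.1%, beside 51.6% of 14109 genes). At 2-fold or more on the log2(RPKM + 1) scale 15 were higher (16.5%, beside 6.35%) and 4 lower (4.396%, beside 1.91%). With quantile normalization 55 were higher (60.4%), and the median difference was 0.14 over the members and -0.05 over all genes. Of the 70 members at 1 RPKM in both libraries, a filter chosen after seeing the data, 44 were higher in the breeding ovary (62.9%, beside 49.8% of all such genes). DMR_08360 (1428 bases) had the largest difference on the log2(RPKM + 1) scale, with 17.8 RPKM (772 reads) in the breeder and 2.07 RPKM (68 reads) in the non-breeder. DMR_01205 had the lowest, with 8.70 RPKM (268 reads) against 40.04 RPKM (939 reads). In testis, of 89 members, 41 were higher in the breeding male (46.1%, beside 43.4% of 15452 genes), 2 by 2-fold or more (0.634% of all genes) and 3 lower by that much (2.64%). On the log2(RPKM + 1) scale DMR_19350 had the highest difference in testis, 2.81 RPKM (28 reads) against 0.360 (5 reads), and DMR_13860 (1698 bases) the lowest, 1.29 RPKM (61 reads) against 4.22 (279 reads). With a pseudocount of 0.1 other members took the first place in ovary and the last in testis.

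**Figure D5:**
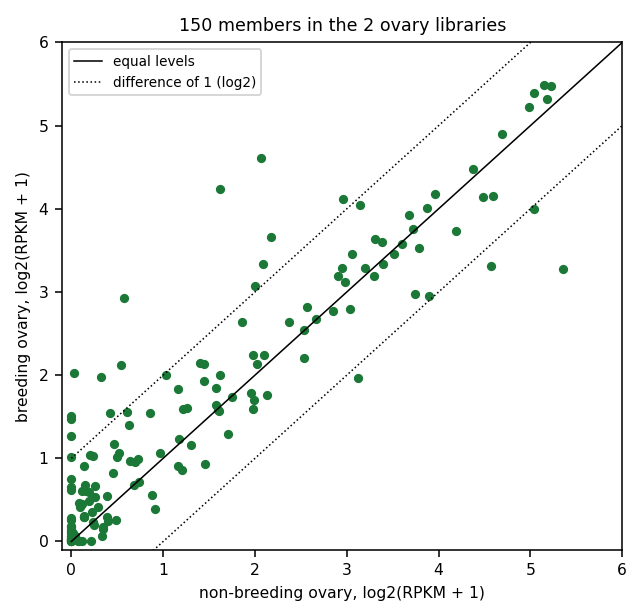
Level of each of the 150 members in the breeding ovary (y axis) against the non-breeding ovary (x axis), both as log2(RPKM + 1), 1 library each. The solid line marks equal levels and the dotted lines a difference of 1. More points lie above the upper dotted line than below the lower one, 15 against 4 of the 91 members at 1 RPKM or more in either library. The rule used these ovary values in choosing the members.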

How the data were processed

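Poly(A)-selected RNA was copied into cDNA and sequenced in paired ends (Illumina), per the labels' protocols. The authors deposited 1 table of RPKM values with a column per library, and all 16 columns were used (0 were left unused). The submitters' processing notes name TopHat 1.3.1. Not given in the sources used here are the genome build, the annotation, the counting tool and the meaning of the divisor. Whole reads, lengths and divisors were recovered from the quotients for 100% of genes. The step between lengths was set to 3 bases, and the lengths were taken as coding lengths. With that step every divisor came within 1.49e-07 of a whole number. Lengths, divisors and the ratios of reads to divisors rest on it. Precision follows from the reads stated beside values and from single libraries per group.

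Values were tested as log2(RPKM + 1), which understates changes of low genes, with limma 3.58.1 in R 4.3.3 (trend, Benjamini-Hochberg adjustment over all genes with 1 RPKM in 2 libraries of the fit, threshold 0.05). Kidney and liver were fitted as 8 libraries with tissue, status and sex (4 residual degrees of freedom), then with separate effects per organ (2). Brain, ovary and testis were left out there, since members are near 0 in them by the rule, and formed a fit of their own (5). The fits were also run on simulated reads, with the same dispersion for all genes, independent libraries and a small set of changed genes. These settings differ from the data, so that run is not used as support for the calls. The members, the rule and the comparisons were chosen with earlier results of these data known. Named members were the 2 with the largest gap, those beside the limit, and per comparison up to 2 per direction with the largest called difference, or the 1 with the smallest unadjusted p where none was called. For ovary and testis status the highest and lowest ratios were named. Others are marked in the text. Alternatives were 3 other scalings, a pseudocount of 0.1, no filter or one at 5 RPKM, array weights, adding brain, a block for the class of status and sex, and leaving out each library. A filter of 1 RPKM in both ovary libraries was added after seeing the data.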

Additional observations from a re-analysis of the deposited data

How the results depend on the processing

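Of 150 members, 127 remained when the list was drawn from values scaled to reads on genes, 135 after quantile normalization, 140 when 0.1 was the pseudocount, 129, 135 and 129 with an exclusion factor of 4, of 16 and with none, and 137 to 150 when each library was left out. Members called between kidney and liver numbered 91 to 113 when each of the 8 libraries was left out and 96 to 122 in the other settings, with the split between organs changing as reported. Of all genes, 53% were called in the main fit and 78.2% when scaled to reads on genes. The counts of kidney against liver calls in this paragraph are therefore no result about the members. For ovary against brain and testis the calls moved with single ovary and testis libraries, as described above. With a filter at 5 RPKM, where fewer genes were tested, 30 of 49 members tested were called. For sex with both organs together, voom and the 12 libraries with brain each called 1 member and a random replicate block for the class of status and sex called 2, against 0 (0 to 0 without each library). For sex in kidney, voom and the 12 libraries each called 1 member, again against 0 (0 to 0 without each library). Why these calls appeared was not tested. Status and the differences between organs gave 0 members in every setting, as did sex in liver. As the labels tie no libraries to an animal, status and sex class is only a shared label. As a fixed replicate block it gave 101 calls between kidney and liver, 23 higher in kidney and 78 in liver, and the estimated correlation within classes was -0.276. For the named genes 385 refits gave the reported direction and call, 0 lost a call or reversed, and 3 passed the threshold where the reported test did not. Members with few reads outside kidney and liver limit the comparisons there.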

Other observations

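Some members carry consecutive identifier numbers. There are 11 such pairs, which hold 21 members (14% of the list), and the longest run has 3. Members are 0.712% of all genes, but a member can have a neighbour on either side. The 0.712% is therefore not the matching background for the 14%, which was not computed. One pair, DMR_03940 and DMR_03941, has the same coding length of 1509 bases. DMR_03940 had a mean of 184 RPKM in kidney and 570.0 in liver, and DMR_03941 76.8 and 221. Both were named after their values were seen. No coordinates were used here, and shared reads of near-identical copies were not tested.

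On the deposited scale the members varied within an organ somewhat more than the expressed genes, a set that includes them. Members were also more abundant than that set, and the comparison was not matched for level or repeated on another scale. The median coefficient of variation over the 4 libraries was 0.227 in kidney and 0.234 in liver, beside 0.208 and 0.199. The highest value was 2 or more times the lowest for 48 members in kidney (32.0%, beside 23.2% of expressed genes) and for 39 in liver (26.0%, beside 22.3%). DMR_17639 (1680 bases), chosen after its values were seen, had 857, 27.2, 417 and 286 RPKM in kidney, in the order used above, and 307, 566, 299 and 529 in liver. Both males were above both females in kidney and below both in liver. Its sex difference was 2.74 in kidney (limma adjusted p = 0.369) and -0.85 in liver, and the gene was not called for a difference between organs.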
